A study of Homo sapiens with 18 samples.

Results

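The genes described here are 10 components of insulin and insulin-like growth factor (IGF) receptor signalling: the ligand IGF2, the receptors IGF1R, INSR and IGF2R, the adaptors IRS1 and IRS2, and the binding proteins IGFBP2, IGFBP3, IGFBP4 and IGFBP6. They were chosen by gene symbol, and all 10 were found among the 38055 genes of the whole transcriptome table, of which 20129 were expressed strongly enough to be tested. The samples were whole-cell RNA from HCT116, a human colorectal carcinoma cell line of epithelial type, of WT genotype and with no other treatment. Cells were seeded on day 0, received fresh medium daily from day 2, and were taken on day 3 at 50% confluency, on day 5 at 250% and on day 7 at a labelled 400%. Whole transcriptome RNAseq of days 3 and 5 (3 libraries each) and small-RNAseq of days 3, 5 and 7 (3 libraries each) were used, and whole transcriptome values of day 7 were not analysed here. All groups were the same line at different densities, so density and time in culture cannot be told apart. The labels call the libraries biological replicates and say no more on separate cultures, so the p-values measure the spread between these libraries.

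Insulin and the IGFs act through paired receptor tyrosine kinases, the insulin receptor and the type 1 IGF receptor, which phosphorylate IRS adaptors and thereby engage PI3K, AKT and mTOR. AKT in turn keeps FOXO transcription factors out of the nucleus, and IRS2 and INSR are themselves known FOXO targets in several tissues. IGF2R, which does not signal in this way, takes IGF2 to lysosomes, the IGF-binding proteins (IGFBPs) hold the ligands outside the cell, and gain of IGF2 is a recognised event in part of colorectal cancers.

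Recovered reads on genes numbered 27470978 to 56689369 per RNAseq library, and the day 3 group held both the shallowest and the deepest library. The epithelial markers EPCAM, KRT8, KRT18, CDH1 and CDX2 were expressed in all 6 libraries, while KRT20 stayed at values of 38.3 or less and VIL1 at 5.18 or less. KRT8, KRT18, CDH1 and CDX2 themselves rose, by 1.05, 0.93, 2.63 and 0.44 on the log2 scale. EPCAM moved by 0.002 and KRT20 by -0.67, neither past the threshold (limma, adjusted p of 0.982 and 0.0613). The leukocyte list summed to 9.92 or less in every library. The fibroblast list summed to 513 to 594 on day 3 and to 1114 to 1181 on day 5, nearly all of it COL1A1 (log2 fold change 1.12), with DCN at 4.33 or less and LUM not analysed here. The endothelial marker VWF rose by 1.14 from 8.51 to 19.8 on day 3 to 19.7 to 39.7 on day 5, with CDH5 at 1.24 or less. The part of these markers in the results was not tested. Values are the authors' normalized read counts unless a sentence says otherwise, and log2 fold changes are day 5 minus day 3 on the log2(value + 1) scale, which understates changes of weakly expressed genes.

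All 9 of the 10 genes that passed the filter on low values rose from day 3 to day 5, and in each the 3 day 5 libraries lay above the 3 day 3 libraries. Each of the 9 had a value of at least 10 in all 6 libraries. IGFBP3 rose most, 9.90-fold, and IGFBP2 least, 1.64-fold. At an adjusted p under 0.05 (limma with Benjamini-Hochberg adjustment over all genes tested), 29.3% of all genes tested were higher on day 5, and 33.4% had all day 5 libraries above all day 3 libraries. At least 2-fold higher on day 5 were 7 of the 9 genes, compared with 10.2% of all genes tested. The median log2 fold change of the 9 was 1.81, against 0.01 over all genes tested. In bulk RNA, more cells expressing a gene and more RNA per cell cannot be told apart. The study selected IGF1R as a candidate partly for higher expression at high than at low density in whole transcriptome RNAseq, so its rise is not independent evidence of its direction. Its text names the comparison of the highest density with the lowest, of which the day 3 libraries are also used here.

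**Figure D1:**
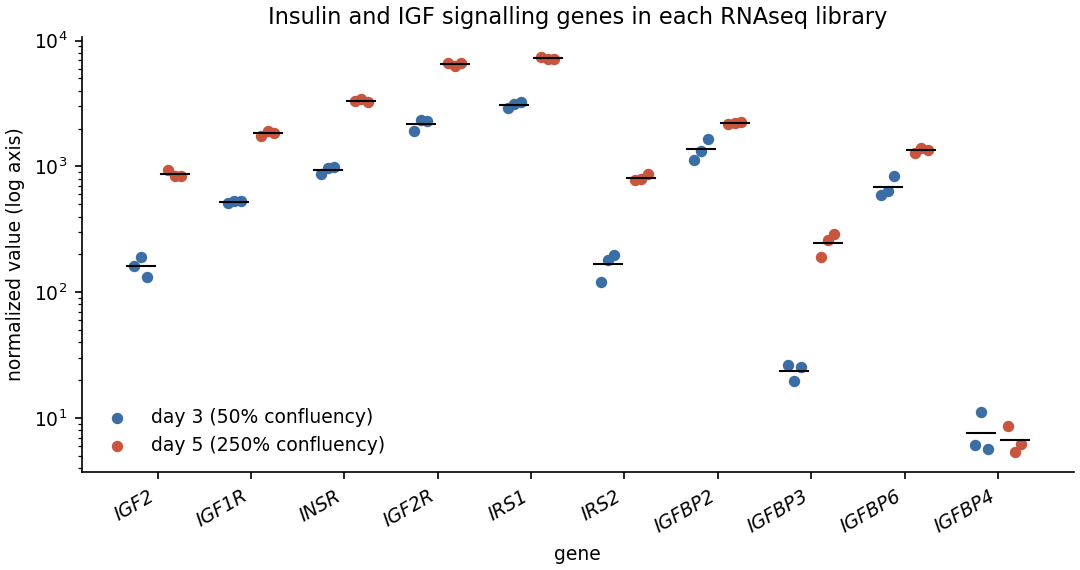
Normalized value (log axis) of each of the 10 genes in each RNAseq library, with 3 libraries on day 3 (blue) and 3 on day 5 (red) and black lines at the group means. In 9 genes every red point lies above every blue point, and in IGFBP4 the points of both days overlap between 5.36 and 11.1.

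IGF2, the fetal growth factor that binds both IGF1R and INSR, is encoded on chromosome 11 (GRCh38, chr11:2129112-2158391, minus strand). Its values were 162, 190.4 and 132 in the day 3 libraries and 932, 839 and 842 in the day 5 libraries. The days did not overlap, and the lowest day 5 library was 4.41 times the highest day 3 library. The log2 fold change was 2.44 ± 0.15 (SE, limma, adjusted p = 0.000189), and 116 of 20129 genes tested rose at least as much. The annotation places exons of INS-IGF2 on the same strand as IGF2 exons, so reads could be shared with it, and INS-IGF2, INS and IGF1 were not analysed here. On the opposite strand, IGF2-AS stayed at or below 20.4 in every library. Reads were mapped by strand.

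Around the IGF2 locus, 3 of 5 tested genes of a list of the locus and of IGF2 mRNA-binding proteins rose. H19, the noncoding RNA imprinted opposite to IGF2, had values of 60.6, 103 and 78.0 on day 3 and of 208, 285 and 299 on day 5. Its libraries did not overlap between the days, with a log2 fold change of 1.72 ± 0.23 (SE, limma, adjusted p = 0.00141). Among proteins that bind IGF2 mRNA, IGF2BP2 rose by 0.96 and IGF2BP3 by 0.38 on the log2 scale, both with libraries that did not overlap, while IGF2BP1 had 0.41 at an adjusted p of 0.225 (limma).

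IGF1R, the tyrosine kinase receptor for IGF1 and IGF2, lies on chromosome 15 (GRCh38, chr15:98648539-98964530, plus strand). It had values of 509, 529 and 527 on day 3 and of 1760.1, 1902 and 1836 on day 5. The day 3 libraries were within a narrow range, and all day 5 libraries were more than 3 times as high. The log2 fold change was 1.81 ± 0.07 (SE, limma, adjusted p = 0.000117).

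INSR, the insulin receptor, lies on chromosome 19 (GRCh38, chr19:7112255-7294414, minus strand). Its values were 874, 969 and 981 on day 3 and 3311, 3427 and 3229.7 on day 5, with no overlap. The log2 fold change was 1.82 ± 0.08 (SE, limma, adjusted p = 0.00014), within 0.01 of that of IGF1R. In RPKM, which scales reads to exon length and to the library total so that levels of different genes can be compared, IGF1R stood at 0.453, 0.424 and 0.418 times INSR in the day 3 libraries and at 0.413, 0.431 and 0.442 times in the day 5 libraries. These ratios, which do not depend on the scale between libraries, overlapped between the days. Their log2 difference was -0.01 (two-sided exact permutation test, p = 0.9, adjusted over 2 ratios 0.9, where 3 against 3 libraries cannot give p under 0.1).

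IGF2R, the cation-independent mannose 6-phosphate receptor, which carries lysosomal enzymes and clears IGF2, lies on chromosome 6 (GRCh38, chr6:159969082-160113507, plus strand). Values of 1899.95, 2358 and 2281 on day 3 compared with 6669, 6249 and 6601 on day 5. The first day 3 library was the lowest, and the days did not overlap. The rise was 1.58 ± 0.11 on the log2 scale (SE, limma, adjusted p = 0.000222). The pseudogene CHP1P2 shares exon sequence with IGF2R on the same strand and had mean values of 70.7 on day 3 and 111 on day 5, far below those of IGF2R. Of the 3 receptors, IGF2R had the largest share of their summed RPKM on day 3 (43.6% ± 1.67, SD, n = 3) and INSR on day 5 (42.3% ± 1.05), while the sum itself went from 6.14 ± 0.41 to 21.2 ± 0.39 RPKM. This order depends on the exon length used: with the longest transcript of each gene, IGF2R led on both days, with 51.8% ± 1.70 and 47.7% ± 1.58.

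The RefSeq promoter of IGF2R is shown because it holds the E-box TCACGTGA in 3 places, each in capitals. The window runs from 250 bases before to 50 after the start, at chr6:159968832-159969131 on the plus strand of GRCh38.p14. TCACGTGA reads the same on both strands, is the core of the element recognised by TFEB and related lysosomal regulators, and was chosen for a count after this promoter had been read. Of 35116 promoters of the same length, 0.98% hold it at least once and 0.0114% hold it 3 times or more. Each copy also contains ACGTG on both strands, so that the 6 matches to the hypoxia response core ACGTG or GCGTG in this window are the same 3 places. A match describes letters and is no evidence of binding.
IGF2R promoter: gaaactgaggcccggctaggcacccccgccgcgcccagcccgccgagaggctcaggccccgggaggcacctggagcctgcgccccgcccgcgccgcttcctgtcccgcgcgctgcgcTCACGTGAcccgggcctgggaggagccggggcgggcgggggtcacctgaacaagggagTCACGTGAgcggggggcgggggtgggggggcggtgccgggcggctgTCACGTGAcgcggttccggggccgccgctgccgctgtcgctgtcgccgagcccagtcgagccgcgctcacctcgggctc

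IRS1, the broadly expressed adaptor that links both receptors to PI3K, lies on chromosome 2 (GRCh38, chr2:226731312-226799820, minus strand). Its values were 2899.97, 3147 and 3243 on day 3 and 7472, 7206 and 7106 on day 5. The groups were tight and apart, with a log2 fold change of 1.23 ± 0.08 (SE, limma, adjusted p = 0.000207).

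IRS2, the second main adaptor, whose gene is a classical FOXO target, lies on chromosome 13 (GRCh38, chr13:109752695-109786583, minus strand). Here 120.3, 181 and 198 on day 3 compared with 779.8, 801 and 865 on day 5. The rise of 2.31 ± 0.20 on the log2 scale (SE, limma, adjusted p = 0.000336) was carried by all 3 day 5 libraries, the lowest of which was 3.93 times the highest day 3 library. IRS2 therefore went from 0.0510, 0.0707 and 0.0752 times IRS1 in RPKM on day 3 to 0.128, 0.136 and 0.149 times on day 5, without overlap. The ratio was 2.13 times as high on day 5 (two-sided exact permutation test, p = 0.1, the smallest that 3 against 3 libraries can give, adjusted over 2 ratios 0.2). IRS1 remained the more abundant adaptor on both days, with 93.9% ± 1.14 (SD, n = 3) of their summed RPKM on day 3 and 87.9% ± 0.827 on day 5.

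**Figure D2:**
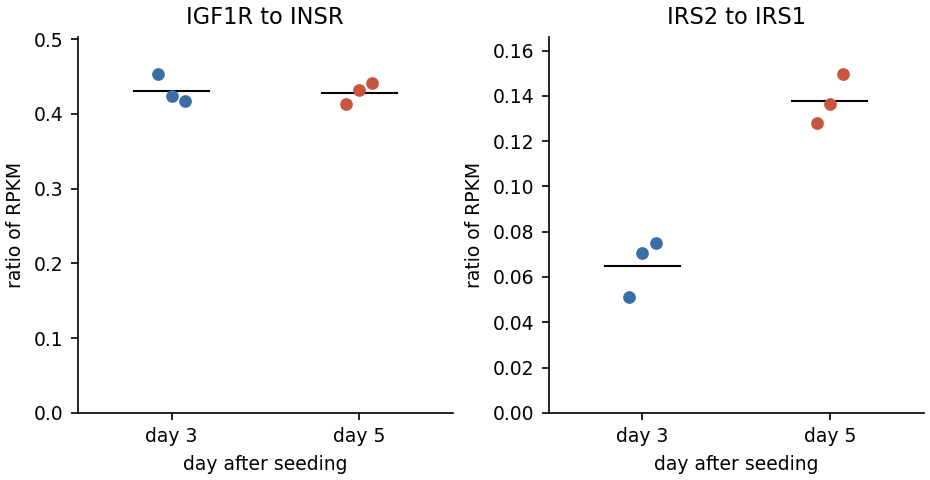
Ratio of RPKM within each RNAseq library for IGF1R to INSR (left) and IRS2 to IRS1 (right), with 3 libraries per day as points and black lines at the geometric means; both axes start at 0. The IGF1R to INSR ratio has means of 0.431 on day 3 and 0.429 on day 5 with overlapping points, and the IRS2 to IRS1 ratio has means of 0.0647 and 0.138 with no overlap.

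The IRS2 promoter is shown because it was the member promoter with a match to CAAAACA, the insulin response element known to be bound by FOXO factors. The match is on the opposite strand and therefore reads TGTTTTG, in capitals, in the window chr13:109786534-109786833 (GRCh38.p14, minus strand, printed 5′ to 3′). Of 35116 promoters, 4.92% hold CAAAACA on either strand. The forkhead element GTAAACA, searched on both strands and held by 3.42% of promoters, was found among these genes in the promoter of IGFBP6.
IRS2 promoter: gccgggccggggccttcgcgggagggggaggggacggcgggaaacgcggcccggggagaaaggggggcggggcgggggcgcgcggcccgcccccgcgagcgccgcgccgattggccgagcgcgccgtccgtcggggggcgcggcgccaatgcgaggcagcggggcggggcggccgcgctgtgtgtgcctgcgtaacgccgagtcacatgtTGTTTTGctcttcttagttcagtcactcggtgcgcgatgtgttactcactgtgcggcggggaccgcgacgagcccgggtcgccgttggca

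IGFBP3, the main IGF carrier of plasma and a gene known to respond to p53, TGF-β and hypoxia, lies on chromosome 7 (GRCh38, chr7:45912245-45921874, minus strand). It was weakly expressed on day 3, at 26.3, 19.8 and 25.5, and reached 191, 262 and 289 on day 5. Behind these values were 30, 32 and 18 reads on day 3 and 176, 244 and 279 reads on day 5. The lowest day 5 library was 7.25 times the highest day 3 library. The log2 fold change was 3.31 ± 0.19 (SE, limma, adjusted p = 0.00018), and 31 of the 20129 genes tested rose at least as much.

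IGFBP6, which prefers IGF2 over IGF1, lies on chromosome 12 (GRCh38, chr12:53097436-53102345, plus strand) and had values of 593, 636 and 835 on day 3 and of 1274, 1392 and 1350.3 on day 5. The third day 3 library was the highest of its group and still below all day 5 libraries. The rise was 0.97 ± 0.14 on the log2 scale (SE, limma, adjusted p = 0.00195).

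IGFBP2, a binding protein of fetal and tumour tissue on chromosome 2 (GRCh38, chr2:216632828-216664436, plus strand), had values of 1127, 1321 and 1659 on day 3 and of 2187, 2196 and 2251 on day 5. Its rise of 0.71 ± 0.15 (log2, SE, limma, adjusted p = 0.0079) was the smallest of the 9, and the spread on day 3 was wider than on day 5. The third day 3 library, the shallowest of the 6, was again the highest of its group.

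IGFBP4, a binding protein that mostly restrains IGF action and lies on chromosome 17 (GRCh38, chr17:40443450-40457725, plus strand), was near the limit of detection. Its values were 6.15, 11.1 and 5.67 on day 3, from 7, 18 and 4 reads, and 8.68, 5.36 and 6.21 on day 5, from 8, 5 and 6 reads. The days overlapped. It did not pass the filter, and without a filter its log2 difference was -0.13 (95% interval -0.87 to 0.62, limma, adjusted p = 0.811). No direction was detectable at this depth.

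**Figure D3:**
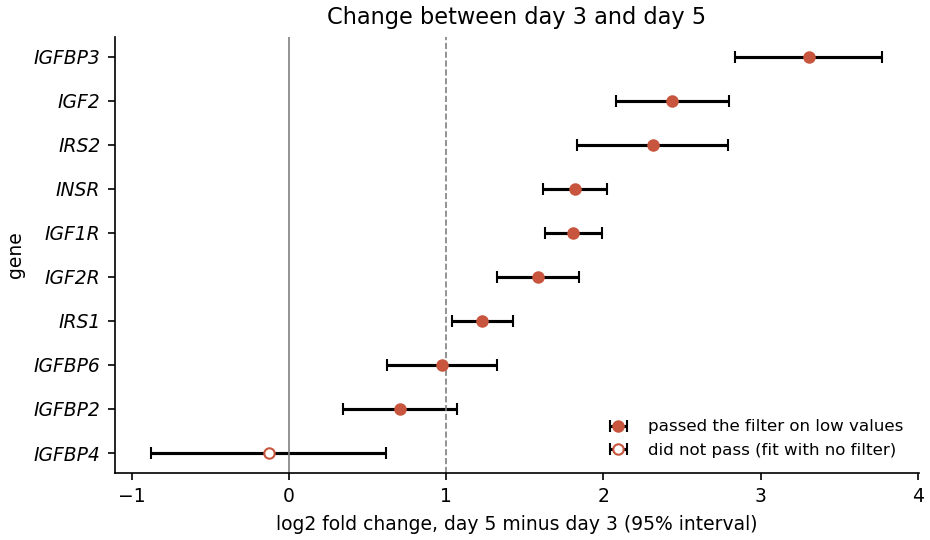
Log2 fold change, day 5 minus day 3, with the 95% interval of the limma fit for the 9 genes tested (filled) and for IGFBP4 from the fit with no filter (open); the dashed line marks a 2-fold change. The order runs from IGFBP3 at 3.31 to IGFBP2 at 0.71, and the interval of IGFBP4 spans 0.

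The promoter of IGFBP3 is shown as that of the gene with the largest rise. Capitals mark matches to the hypoxia response core, ACGTG or GCGTG on either strand (their reverse complements are CACGT and CACGC), in the window chr7:45921223-45921522 (GRCh38.p14, minus strand). It holds 3 matches in separate places. IRS1 also has 3, but CACGTG there is counted on both strands, as in IGF2R. IGF1R holds 5 and IGF2R 6, and INSR, IRS2, IGFBP4 and IGFBP6 hold none. Of the 3 promoters of IGFBP2, 1 holds none and the other two hold 1 each. These letters are short and common: 48.4% of 35116 promoters hold at least 1 match and 10.1% hold 3 or more.
IGFBP3 promoter: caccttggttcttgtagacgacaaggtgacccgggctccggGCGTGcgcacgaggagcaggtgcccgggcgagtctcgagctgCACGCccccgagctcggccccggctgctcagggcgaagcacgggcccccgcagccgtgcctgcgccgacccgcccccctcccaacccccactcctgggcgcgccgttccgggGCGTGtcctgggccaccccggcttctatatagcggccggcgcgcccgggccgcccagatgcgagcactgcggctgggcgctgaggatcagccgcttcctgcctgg

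Per kilobase of exon, IGFBP6 was the most abundant of the 10 genes on both days, at 14.1 ± 1.59 RPKM on day 3 and 29.0 ± 1.31 on day 5 (SD, n = 3). IRS1 (8.60 ± 0.333 and 21.1 ± 0.776) and IGFBP2 (7.97 ± 0.996 and 13.6 ± 0.040) followed; these neighbours overlapped on day 3 and were apart on day 5. IGF2R (2.68 ± 0.264) and INSR (2.42 ± 0.12) came next on day 3 and overlapped, and INSR (8.94 ± 0.371) and IGF2R (8.38 ± 0.27) overlapped in the opposite order on day 5. With the longest transcript as length, IGF2R (4.26 ± 0.42 and 13.3 ± 0.429) lay above INSR (2.77 ± 0.137 and 10.2 ± 0.425) on both days without overlap. IGF1R followed on both days, at 1.04 ± 0.062 and 3.83 ± 0.158 RPKM. IGF2 (0.633 ± 0.146) and IRS2 (0.564 ± 0.113) overlapped on day 3, with IGF2 at 3.55 ± 0.241, within the range of IGF1R, and IRS2 at 2.91 ± 0.119 on day 5. With the longest transcript IGF2 (4.55 ± 0.308) stood before IGF1R (4.37 ± 0.18) on day 5, again with overlap. IGFBP3 went from 0.145 ± 0.023 to 1.57 ± 0.308, and IGFBP4 stayed at 0.0973 ± 0.041 and 0.0893 ± 0.023.

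Among the 4 binding proteins the summed level went from 22.3 ± 2.53 to 44.2 ± 1.53 RPKM (SD, n = 3). IGFBP6 made up 63.2% ± 1.01 of it on day 3 and 65.5% ± 0.799 on day 5, and IGFBP2 35.7% ± 1.00 and 30.7% ± 0.995. The share of IGFBP3 was 0.84%, 0.569% and 0.571% in the day 3 libraries and 2.87%, 3.68% and 4.1% in the day 5 libraries. With the longest transcript its mean share was 1.02% on day 3 and 5.39% on day 5. Despite its large fold change, IGFBP3 thus remained a small part of the IGFBP mRNA.

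The genes whose log2 values over the 6 libraries were most like those of IGF1R, among 9867 genes averaging at least 10 CPM (reads scaled to the library total), were PPP1R3B, KDM4B and AHNAK, with Pearson's r between 0.99974 and 0.99992. Those most like IGFBP3 were IQGAP3, TMEM45A and SPTB, with r between 0.998 and 0.999. The 6 points form one group per day, so that any gene with a large and even change scores highly: 885 genes had r over 0.99 with IGF1R and 278 with IGFBP3. PPP1R3B, a glycogen-targeting subunit of protein phosphatase 1, had values of 356, 383 and 381 on day 3 and of 1755, 1946 and 1894 on day 5.

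The wider pathway was described with 8 lists of 73 genes, chosen by known role, of which 58 were tested: 37 rose, 7 fell and 14 did not pass the threshold, with a median log2 fold change of 0.52. The lists were drawn up with earlier results of these data known, and their counts are descriptions beside the 29.3% of all genes tested that rose and the 27.6% that fell.

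Of the other ligands and binding proteins, IGFBP5 was the one gene tested, with a log2 difference of -0.58 at an adjusted p of 0.26 (limma). IGFBP1, IGFBP7 and IGFALS stayed at 5.36 or less in every library. Among IGFBP proteases and their inhibitors, 2 of 6 were tested. STC2, stanniocalcin 2, which inhibits the protease PAPP-A and so keeps IGFs bound, had values of 920.1, 958 and 1038 on day 3 and of 4202, 4228 and 4224 on day 5, a rise of 2.12 ± 0.08 (log2, SE, limma, adjusted p = 0.0001). The protease gene itself, PAPPA, was at 2.47 or less in every library. PRSS23, a serine protease, fell by 0.55 on the log2 scale (limma, adjusted p = 0.0201).

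Among receptor-proximal adaptors and brakes, 8 of 9 tested genes rose and 1 fell. PTPRF, the receptor phosphatase LAR that can dephosphorylate the insulin receptor, rose by 1.76, and GAB1, a docking protein, by 1.21 on the log2 scale. SHC1, which leads to RAS and MAPK, rose by 0.93 and GRB2, its partner, by 0.59. GRB14, an inhibitor of insulin receptor kinase activity, fell by 0.51.

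In the PI3K and AKT list, 7 of 15 tested genes rose, 3 fell and 5 did not pass. The largest rises were in PHLPP1, a phosphatase that removes phosphate from AKT, at 1.10, INPPL1, the lipid phosphatase SHIP2, at 1.04, and PIK3CD, a catalytic subunit of PI3K, at 1.02 on the log2 scale. AKT1 and AKT2 rose by 0.48 and 0.55. PIK3R3, PHLPP2 and INPP4B fell, with log2 fold changes of -0.56, -0.26 and -0.21.

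Of 13 mTOR complex genes tested, 7 rose, 1 fell and 5 did not pass. DDIT4 (REDD1), a stress-induced inhibitor of mTORC1 that is also a hypoxia target, went from 496, 493 and 529 to 10577, 11647 and 11961, a log2 fold change of 4.49 ± 0.08 (SE, limma, adjusted p = 5.6e-05). DEPTOR, which binds and inhibits mTOR, rose by 1.24, and TSC2, part of the complex that switches off RHEB, by 1.14. RHEB, the GTPase that activates mTORC1, fell by 0.63, from 3887, 3748 and 4234 to 2553, 2466 and 2645. MTOR itself rose by 0.44 and RPTOR by 0.62, as did AKT1S1 by 0.83 and TSC1 by 0.51. The activity of mTOR was not tested.

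All 4 FOXO factors rose: FOXO3 by 1.60, FOXO6 by 1.51, FOXO4 by 1.15 and FOXO1 by 0.98 on the log2 scale. FOXO3 had values of 1155, 1311 and 1263 on day 3 and of 3563, 3869 and 3835 on day 5. Of 9 tested FOXO targets beyond the members, 7 rose, 1 fell and 1 did not pass. CCNG2, an atypical cyclin of cells leaving the cycle, rose by 2.41, PIK3IP1, an inhibitor of PI3K, by 1.88 from low values, and BCL6, a transcriptional repressor, by 1.81. The stress-response gene SESN1 fell by 0.35, and TXNIP was not analysed here.

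**Figure D4:**
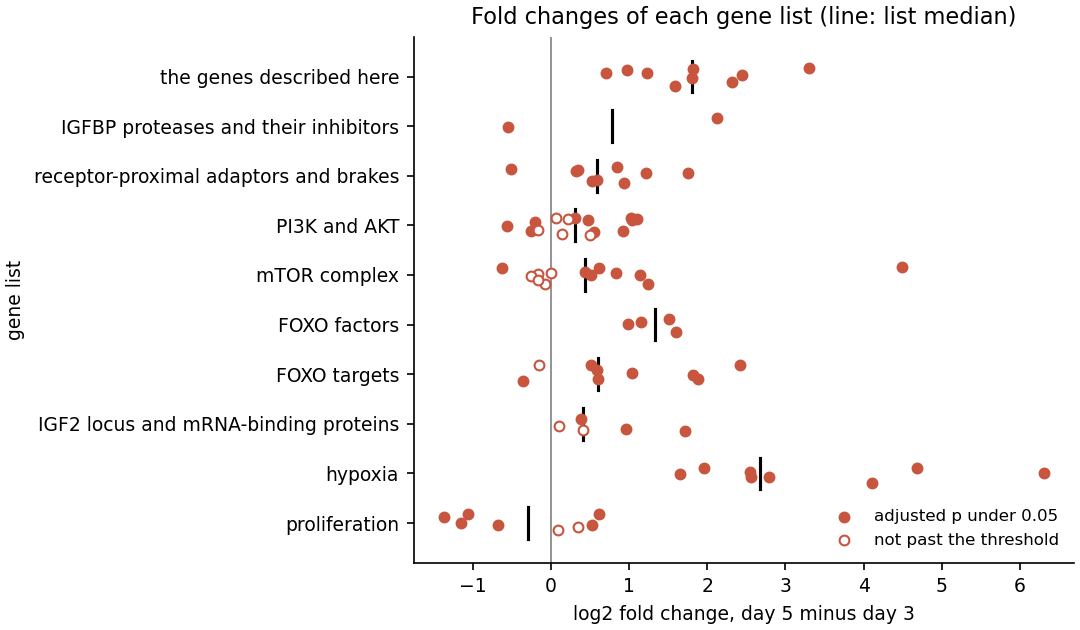
Log2 fold change, day 5 minus day 3, of every tested gene of the 10 genes described here, of 7 pathway lists and of the hypoxia and proliferation lists; filled points passed an adjusted p of 0.05, and black lines are list medians. The medians are 1.81 for the insulin and IGF genes, 1.33 for FOXO factors, 0.31 to 0.79 for the other pathway lists, 2.68 for hypoxia and -0.29 for proliferation; the list of other ligands, with 1 gene tested, is not drawn.

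Hypoxia genes moved with the insulin and IGF genes, and proliferation genes were mixed. All 8 hypoxia genes rose, of which CA9 passed the filter only through its day 5 values and so had to differ. Without CA9 the count was 7 of 7, beside 29.3% of all genes tested. The summed values of all 8 went from 5936 to 6340 over the day 3 libraries to 51954 to 59040.3 over the day 5 libraries. The largest part of the day 5 sums was NDRG1, with values of 29429.9, 34148.5 and 35438.5. CA9, the carbonic anhydrase induced by HIF1, was at 0.878, 0.618 and 4.25 on day 3 and at 204, 178 and 214 on day 5. Of 8 proliferation genes, 4 fell, with log2 fold changes of -1.37 for PCNA, -1.15 for CCNB1, -1.06 for CDK1 and -0.68 for TOP2A, while MKI67 rose by 0.52 and MCM2 by 0.61 and the other 2 did not pass. The part of hypoxia or of growth state in the changes of the insulin and IGF genes was not tested.

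Small RNAs were examined because miR-483 lies within IGF2, in an intron on the same strand, and because several miRNAs are described regulators of the receptors and adaptors. The mature sequences of 6 of the 8 miRNAs chosen were found in RefSeq and are given with the seed, bases 2 to 8, in capitals. No 2 of the 6 share a seed.
let-7a-5p: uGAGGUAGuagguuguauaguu
miR-7-5p: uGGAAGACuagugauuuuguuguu
miR-27a-3p: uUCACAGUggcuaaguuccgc
miR-100-5p: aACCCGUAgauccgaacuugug
miR-145-5p: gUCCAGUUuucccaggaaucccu
miR-181a-5p: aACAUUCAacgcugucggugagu

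On the authors' log2 scale, 5 of these 8 miRNAs were higher on day 7 than on day 3 (limma, adjusted p under 0.05), as were 45.3% of 559 miRNAs tested, and the median miRNA moved by 0.30. Scaled to each library's miRNA total the median moved by -0.21, and 3 of the 8 were higher and 1 was lower, so directions depended on the scale. On the authors' scale the totals were 1542087 to 1947371 on day 3 and 2452607 to 2600754 on day 7. Scaling to totals takes this rise out, whereas the paper reports a global increase of miRNA expression at high density. Between days 5 and 3, 1 of the 8 was higher, compared with 8.53% of 539 miRNAs tested. Reads per miRNA were not recovered from the deposited log2 values, so their counting error is not given here.

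miR-483-3p had log2 values of 3.40, 3.68 and 2.87 on day 3, of 4.11, 4.41 and 4.07 on day 5 and of 4.41, 3.98 and 4.57 on day 7. It was rare in all libraries, and the later days lay above day 3 without overlap. The log2 differences from day 3 were 0.88 ± 0.20 on day 5 (SE, limma, adjusted p = 0.0249) and 1.00 ± 0.23 on day 7 (adjusted p = 0.00649). With library totals they were 0.87 (adjusted p = 0.01) and 0.50 (adjusted p = 0.072), and with no filter the adjusted p were 0.236 and 0.099 (limma). Its partner miR-483-5p had log2 values of 4.58, 4.05 and 3.95 on day 3, 4.75, 4.52 and 4.59 on day 5 and 4.79, 5.05 and 5.17 on day 7. Its day 5 libraries overlapped those of day 3 (0.43, limma, adjusted p = 0.14), and its day 7 difference was 0.81 (adjusted p = 0.00649), or 0.31 with library totals (adjusted p = 0.163).

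let-7a-5p, miR-181a-5p and miR-27a-3p rose on day 7 on both scales. Their log2 differences from day 3 were 0.83, 1.05 and 0.71 on the authors' scale and 0.33, 0.55 and 0.21 with library totals (limma, adjusted p of 0.0293 or less in all 6 cases). On day 5, miR-181a-5p had 0.14 and miR-27a-3p -0.04, neither past the threshold on either scale. miR-100-5p, an abundant miRNA with log2 values of 17.4 or more in every library, had 0.09 on day 7 on the authors' scale, with overlapping libraries, and -0.41 with library totals (limma, adjusted p = 0.00662). For miR-145-5p and miR-7-5p the day 7 differences of 0.36 and 0.24 did not pass the threshold and turned to -0.14 and -0.26 with library totals.

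**Figure D5:**
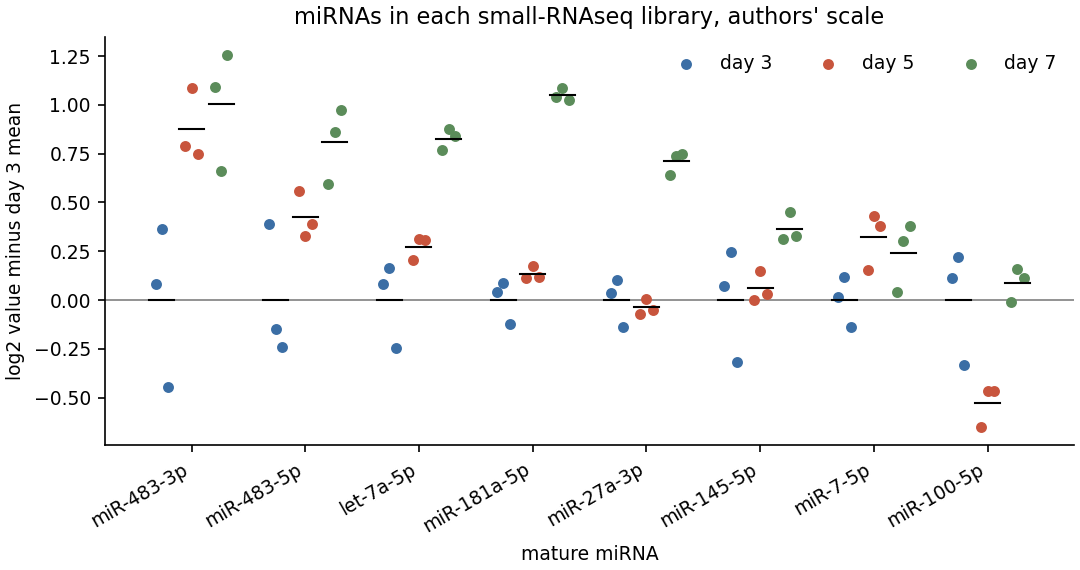
Log2 value of 8 miRNAs in each small-RNAseq library, minus the mean of the 3 day 3 libraries, on the authors' scale, with day 3 in blue, day 5 in red, day 7 in green and black lines at the means of 3 libraries. Day 7 lies above day 3 without overlap in 6 miRNAs, among them miR-145-5p, whose difference did not pass the threshold, while day 5 lies below day 3 in miR-100-5p.

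The 3′UTR of IGF1R, 7088 bases in its MANE transcript (GENCODE release 44), was searched for the complement of each seed. It holds 2 matches of let-7a-5p, 2 of miR-145-5p, 1 of miR-7-5p and 1 of miR-100-5p. It holds none of miR-27a-3p or miR-181a-5p, but 1 shorter match of 6 bases for each. The paper, in contrast, reports strong seed complementarity of both of these miRNAs in AGO2-bound regions of the IGF1R 3′UTR. The search here covered the MANE transcript only, and the paper's transcript and site definition may differ. The reason for the difference was not tested. Of 532 other 3′UTRs at least as long, 34.0% hold at least 1 full seed match of let-7a-5p in their first 7088 bases. At least 1 of miR-145-5p is held by 44.2% and of miR-7-5p by 41.7%, but of miR-100-5p by 2.63%. The shares that hold 2 were not counted. The sites of IGF1R follow, with a pair each from IRS1 and IRS2, the adaptors with matches to the miRNAs that rose on day 7. Capitals mark the 7 bases opposite the seed, and coordinates are those of GRCh38.
IGF1R site of let-7a-5p, chr15:98960047-98960068, plus strand: ccccaaacatttatCTACCTCa
IGF1R site of let-7a-5p, chr15:98964089-98964110, plus strand: ttgccagagtttgtCTACCTCt
IGF1R site of miR-100-5p, chr15:98963030-98963051, plus strand: taagtccagtagatTACGGGTa
IGF1R site of miR-145-5p, chr15:98958215-98958236, plus strand: ttattatttgggggAACTGGAc
IGF1R site of miR-145-5p, chr15:98961232-98961253, plus strand: ctaccggtttccacAACTGGAt
IGF1R site of miR-7-5p, chr15:98963378-98963399, plus strand: tcttcagtatcttgGTCTTCCa
IRS1 site of miR-27a-3p, chr2:226732895-226732916, minus strand: ccctgaatccagacACTGTGAa
IRS1 site of miR-181a-5p, chr2:226734960-226734981, minus strand: ttacattatttaacTGAATGTa
IRS2 site of let-7a-5p, chr13:109755844-109755865, minus strand: aaacgaccacagtcCTACCTCa
IRS2 site of miR-181a-5p, chr13:109754653-109754674, minus strand: ttgcaagacaaagtTGAATGTa

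IRS1 holds 3 matches of miR-27a-3p and 2 each of miR-181a-5p, miR-145-5p and miR-7-5p in 4960 bases, and IRS2 holds 2 of miR-7-5p and 1 each of let-7a-5p, miR-181a-5p and miR-145-5p in 3609 bases. INSR holds 1 each of let-7a-5p, miR-27a-3p and miR-181a-5p in 4791 bases, and IGF2R holds 1 of let-7a-5p in 6420 bases. IGF2 and IGFBP4 hold 1 each of miR-181a-5p. Matches to bases 2 to 7 followed by an A are not in these counts unless they also match the full seed. Where there was no full match, INSR holds 2 of that kind for miR-7-5p. IGF2R holds 1 each for miR-27a-3p, miR-181a-5p and miR-7-5p. IRS1 holds 1 for let-7a-5p, IRS2 1 for miR-27a-3p and IGFBP6 1 for miR-145-5p. Among the long 3′UTRs single matches of the full seed are common. Of 1331 others at least as long as that of IRS1, 38.6% hold at least 1 of miR-27a-3p in their first 4960 bases. The share that holds 3 was not counted. Between days 3 and 5, when IGF1R, IRS1 and IRS2 all rose, none of let-7a-5p, miR-27a-3p, miR-181a-5p, miR-145-5p, miR-7-5p and miR-100-5p passed the threshold on the authors' scale (limma), and 2 of the 6 had an unadjusted p under 0.05, of which 1 was higher on day 5. With library totals, let-7a-5p (0.26) and miR-7-5p (0.31) were higher and miR-100-5p (-0.54) was lower on day 5 (limma, adjusted p of 0.0299 or less). A match describes letters only, and the effect of any miRNA on these mRNAs was not tested.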

How the data were processed

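HCT116 whole-cell RNA was compared across cell densities. For the whole transcriptome, the authors mapped strand-specific reads to Ensembl genes of hg38 in CLC Genomics Workbench, and the deposited values are a normalized signal of 38055 genes. These values are 100% whole multiples of 1 read (tolerance 0.01 reads), which gave back the reads: 38734844, 56689369 and 27470978 on day 3, and 31403756, 31755124 and 33661896 on day 5. The libraries carried molecular identifiers; whether reads were collapsed by them is not given in the sources used here. For small RNA, the authors deposited log2 values of normalized counts for 2167 mature miRNAs; the transform is not given in the sources used here. Fold changes and p-values that the authors list in these tables were not used.

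Groups and replicate numbers came from the sample labels. limma 3.58.1 (R 4.3.3) was fitted to log2(value + 1), and to the miRNA log2 values as deposited. Features had to reach a value of 10 in 3 or more of 6 libraries, and p-values were adjusted by Benjamini-Hochberg over all features tested, with a threshold of 0.05. Within-library ratios used a two-sided exact permutation test. Alternatives were scaling by library totals, dropping the filter, a smaller pseudocount (0.1), a replicate block, a fit of all 9 small-RNAseq libraries, gene length from the longest transcript (for levels and shares added after seeing the data), leaving out each library, and edgeR 4.0.16 and DESeq2 1.42.0 on the recovered reads. Scripts were tested on simulated data. For the whole transcriptome, limma recovered 92 of 195 simulated 2-fold changes among 19740 genes, with 4 false calls. In the data 11450 of 20129 genes were called, so this recovery does not give the sensitivity of the comparison made here. A gene that did not pass the threshold may still have changed.

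RPKM used the recovered reads and the union of annotated exons (GENCODE release 44). Promoter and miRNA sequences were from RefSeq on GRCh38.p14, with promoters for 9 of the 10 genes (none for IGF2) and mature sequences for 6 of the 8 miRNAs. All 10 genes and 8 miRNAs were named. From each pathway list up to 3 genes with the largest absolute log2 fold change past the threshold, and with libraries that did not overlap, were named, and others were added after their values were seen. The 3 genes most correlated with IGF1R and the 3 most correlated with IGFBP3 were named as well. The genes and lists were chosen with earlier results of these data known. Python 3.11.15 was used (pandas 2.3.3; numpy 2.4.6; scipy 1.17.1; matplotlib 3.10.9).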

Additional observations from a re-analysis of the deposited data

How the results depend on the processing

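The rise of IGF1R, INSR, IGF2R, IGF2, IRS1, IRS2, IGFBP2, IGFBP3 and IGFBP6 from day 3 to day 5 was called in all 12 alternatives run, those that left out 1 library included, in 108 of 108 values and with an adjusted p of at most 0.0346. Over all genes, 11450 were called, and 9235 to 12280 under the other settings (9780 to 11300 without 1 library). Same-numbered libraries deviated together little, if at all (correlations of -0.01 to 0.03 in RNAseq and of -0.01 to 0.12 in small-RNAseq). Low correlations cannot show that the libraries were unpaired, and the study used a paired t-test for miRNA reads of day 7 against day 3. With the replicate block 9 of the 9 genes and 10533 genes in all were called.

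Directions of the miRNAs were less stable. Of the 8 miRNAs, those higher on day 7 numbered 5, but 3 with library totals (where 1 was lower), 3 with no filter, and 5 to 6 without 1 library. They numbered 6 in the fit of all 9 libraries and 6 with the replicate block, where miR-145-5p also passed (limma, adjusted p of 0.0407 and 0.0429). On day 5, 1 was higher, but 3 with library totals (with 1 lower), 0 with no filter (limma; 2 at an unadjusted p under 0.05), and 0 to 2 without 1 library; 0 to 1 were lower without 1 library and 1 in the fit of all 9 libraries. All day 5 calls numbered 80, against 135 with library totals, 50 with no filter and 36 to 118 without 1 library. With library totals the day 7 differences of miR-100-5p, miR-145-5p and miR-7-5p turned to -0.41, -0.14 and -0.26. Leaving out 1 library moved miR-100-5p on day 7 between -0.0793 and 0.198, miR-145-5p on day 5 between -0.098 and 0.185 and miR-27a-3p on day 5 between -0.108 and 0.0141; the signs turned without the third day 3 library for the first 2 and without the second for miR-27a-3p. The IGF1R to INSR ratio, which did not differ beyond its spread, ranged from -0.0321 to 0.0263 on the log2 scale without 1 library (0.0263 without the first day 3 library and 0.0175 without the first day 5 library), and the IRS2 to IRS1 ratio from 0.92 to 1.20. The causes were not tested. Reads per miRNA were not recovered from the deposited log2 values, and no exact test of 3 against 3 libraries can pass 0.05.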
